A study of Rattus norvegicus with 21 samples.

Results

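CpGs at which the methylation level read from the forward strand (F) differed from that read from the reverse strand (R) were examined in bisulfite sequencing of rat dorsal striatum. The members were chosen by their values in the 6 unlesioned, saline-treated libraries: at least 20 reads on both strands in each of them, and mean levels of F and R at least 20 percentage points apart. Of the 111034 CpGs of chromosomes 1 to 20 that met the coverage filter (the population), 658 (0.593%) were members, and the other 110376 served as the reference. F was the lower strand at 346 members and R at 312. A CpG is named below by the rn5 coordinate of its F cytosine, and its R cytosine lies 1 base further on. Positions are those of the deposited files, and no rn5 gene annotation or genome sequence was used here, so whether a site lies in a gene is not stated and no bases are printed.

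The rats were wild-type Sprague Dawley animals of 120 days. In both lesioned groups, 6-hydroxydopamine (6-OHDA), a toxin taken up by catecholamine neurons, had been given into the left medial forebrain bundle with the aim of removing 90% or more of the tyrosine hydroxylase (TH) positive axons, and 3 weeks of recovery followed. The lesioned L-DOPA group (7 samples) received L-DOPA, the dopamine precursor used against Parkinson's disease, at 6 mg/kg daily for 7 days and was sampled 3 h after the last dose. The lesioned saline group held 8 samples and the unlesioned saline group 6, and whether the unlesioned tissue came from sham-operated animals is not given in the labels. Samples carry a number within their group and no animal name, so each p-value rests on the spread from sample to sample, which may be technical.

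A CpG reads the same on both strands of DNA, and each strand carries its own cytosine. After DNA replication the new strand is unmethylated, and the maintenance enzyme DNMT1 copies the methyl group onto it opposite the old one, so that most CpGs in a cell are methylated on both strands or on neither. A CpG methylated on one strand alone is called hemimethylated. Bisulfite turns unmethylated cytosine into a base read as T and makes the strands non-complementary, so a read reports on the cytosines of its own strand, and the percent of reads with C is taken as the methylation level. Forms of cytosine modification that resist bisulfite are not told apart.

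Libraries listed 1134001 to 1494388 cytosines with a median of 37 to 70 reads, and 152726 to 199618 autosomal CpGs were listed on both strands. A level was used in a library only where both strands had at least 20 reads. Unlesioned replicate 4 was the shallowest of its group (median 37 reads per cytosine) and had the largest median strand difference at the members, 38.7 points against 27.7 to 30.9 in the other 5. Without it the rule found 884 members, 525 of them shared with the 658. Unlesioned replicate 1 and L-DOPA replicates 3 and 7 had an overall percent of C of 15.8% to 17.1%, against 21.02% to 31.5% in the other 18 libraries. Without these 3 libraries, 609 of 705 tested members were called in the lesioned samples by the test described below. The share of all CpGs called in that setting is not given here.

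The strand difference is given throughout as the percent on F minus the percent on R, in points, or, where members of both directions are put together, as the higher strand minus the lower, with the higher strand fixed by the unlesioned mean. Over the members, the lower strand had a median unlesioned level of 26.7% and the higher strand 63.4%. Differences of 20 to 30 points made up 396 members, while 155 reached 40 points, 82 reached 60 and 38 reached 80. The lower strand was under 5% at 76 members, and at 22 it was under 10% with the other strand over 90%. Most members therefore held C on both strands in unequal shares, and few were close to full methylation on one strand and none on the other. Just inside the threshold lay 3:13750695 with 20.001 points, 10:72896736 with 20.005 and 3:13750702 with 20.009. Just outside lay 6:37936126 with 19.994 points, 6:38023699 with 19.988 and 14:84453740 with -19.945. All of these values chose or excluded the sites and are a description only.

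**Figure D1:**
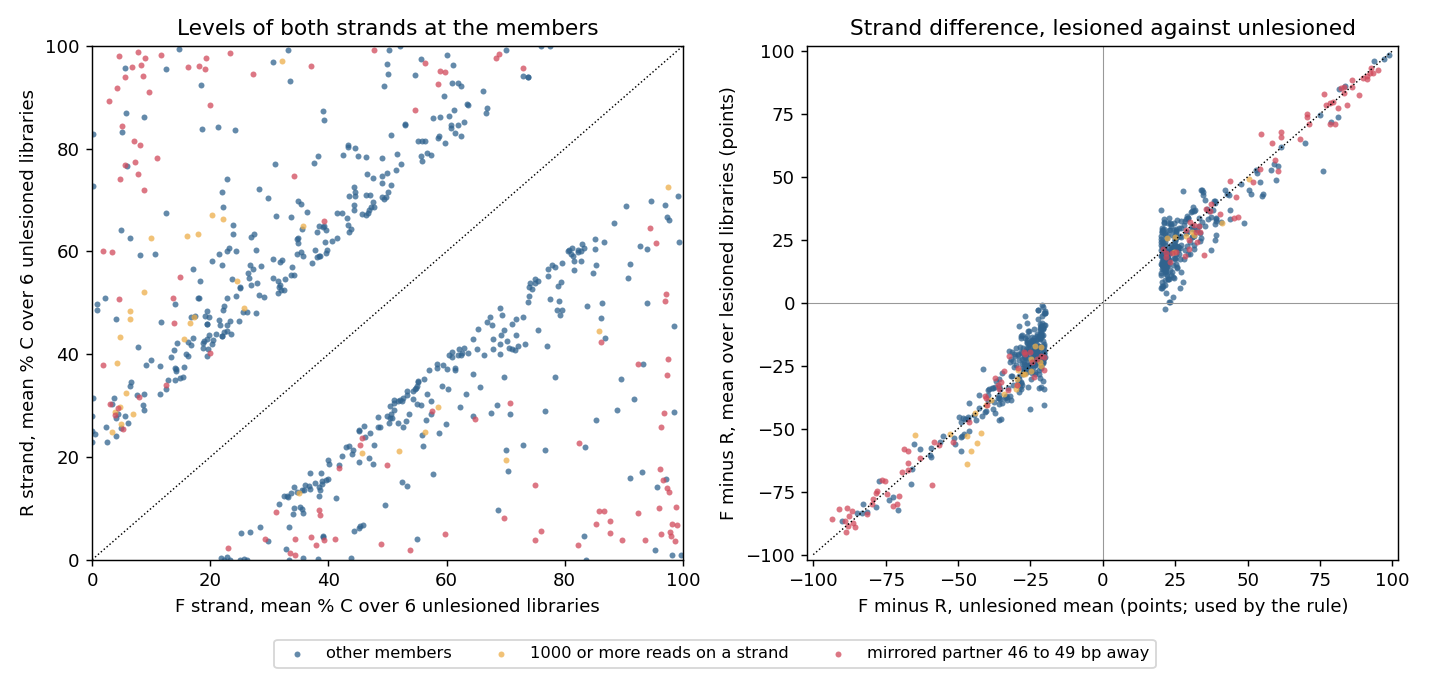
Left, mean percent C on the F strand (x) and R strand (y) over the 6 unlesioned libraries for each of the 658 members, with equality dotted; the empty band around the diagonal is the rule's threshold of 20 points. Right, the unlesioned strand difference that the rule used (x) against the mean over the lesioned libraries that it did not use (y), with equality dotted; 1 member lies on the other side of 0. Colours mark the members with a mirrored partner 46 to 49 bp away, those with 1000 or more reads on a strand, and the rest.

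The lesioned libraries, which took no part in the choice, showed the same strand as lower at nearly every member. The median difference of the members was 26.8 points in lesioned saline libraries and 26.3 in lesioned L-DOPA libraries, beside 26.8 in the unlesioned libraries. The median absolute difference over all lesioned libraries was 26.3 points for the members and 0.509 points for the reference, which was not matched to the members in level. Of the 658 members, 459 still differed by 20 points or more with the same sign, 619 by 10 or more, and 1 had a mean of the other sign (1:9541094, 21.4 points in unlesioned and -2.54 in lesioned libraries, named after its values were seen). In a quasi-binomial logistic model of the reads on both strands, with a term for each library, 590 of 635 tested members passed a Benjamini-Hochberg adjusted p of 0.05 in the lesioned libraries, all 590 with the unlesioned sign. The background was 7.48% of 109245 CpGs tested. It was 3.74% with F lower and 3.74% with R lower, against 306 of 331 tested F-lower members and 284 of 304 tested R-lower members. The other 23 members had fewer than 10 lesioned libraries and were not tested.

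By the size of the unlesioned difference, medians were lower in the lesioned libraries below 30 points and close to the unlesioned ones above. These classes were set by the same unlesioned values that chose the members. A lower median in other libraries near the threshold can come from that choice alone, and a change with the lesion was not tested. Members of 20 to 22 points had a median of 20.9 in unlesioned and 18.0 in lesioned libraries, and 111 of 137 tested were called. Members of 25 to 30 points went from 26.9 to 23.1, with 115 of 123 called. From 30 points on, the medians moved by under 1 point (34.1 and 33.3 at 30 to 40 points, 47.8 and 47.2 at 40 to 60, 79.1 and 79.4 from 60 up), and every tested member was called (105, 70 and 81). Reference CpGs were called in 6.98% of 108610 tested cases, with a median difference of 4.95 points among those called. Reference CpGs with a level of 20 to 80%, which match the members' levels better, were called in 1222 of 8068 cases (15.1%).

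Fewer members were called within subsets of the lesioned libraries, which held fewer samples. Within the 9 lesioned libraries of the first series of library numbers, 460 of 628 tested members were called, and within the 6 of the second series 221 of 648. Lesioned saline libraries alone gave 393 of 601, and L-DOPA libraries alone 330 of 639. The subsets also differ in series and group: both series mix lesioned saline and L-DOPA libraries unequally, and all unlesioned libraries belong to the second. L-DOPA replicates 3 and 7, with their low percent of C, are among them. What made these counts differ was not tested, and the share of all CpGs called in each subset is not given here.

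Library by library, 96.5% to 99.2% of the members had the sign of the unlesioned mean in the unlesioned libraries that set it. The share was 94.6% to 96.9% in lesioned saline libraries and 90.4% to 96.8% in L-DOPA libraries. L-DOPA replicate 7 was lowest with 90.4%, and the next lowest L-DOPA library had 94.4%. The sign was the same in every lesioned library measured at 439 members (66.7%), against 0.901% of reference CpGs. The reference CpGs were not matched to the members in level for this share. How much of the contrast goes with level was not tested. Over the 380 members measured in all 21 libraries, the median difference was 26.1 to 37.3 points in unlesioned, 25.3 to 29.5 in lesioned saline and 23.2 to 29.7 in L-DOPA libraries. The ranges of the 3 groups overlapped, and the lowest value again belonged to L-DOPA replicate 7.

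**Figure D2:**
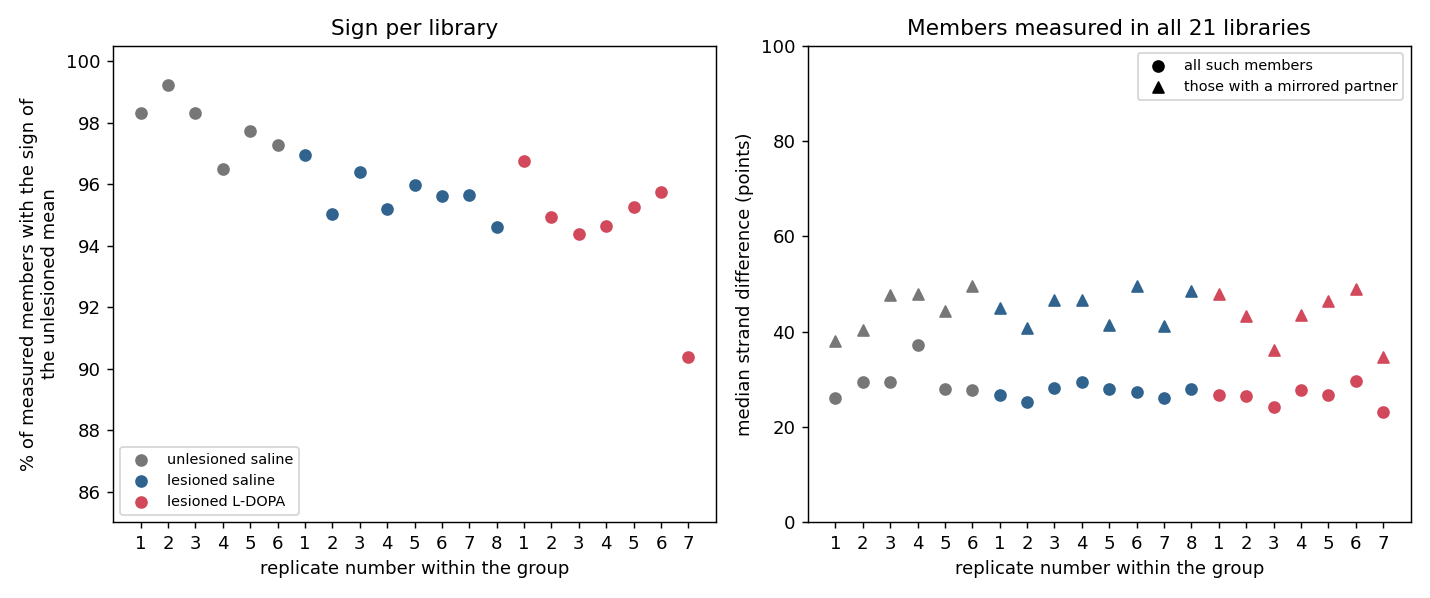
Left, percent of the measured members whose strand difference had the sign of the unlesioned mean, for each of the 21 libraries (the axis starts at 85%); L-DOPA replicate 7 sits at 90.4% and all others lie above 94%. Right, median strand difference in points over the 380 members measured in all libraries (circles) and over the 56 of them with a mirrored partner (triangles); each point is 1 library.

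The 6 members with the largest lesioned difference in each direction had mean lesioned differences of 78.1 to 97.0 points in size. They were picked among called members with 1 sign in all 21 libraries and at least 20 reads per strand in each. At most 1 in 1000 bp was taken. The calls, the single direction and the large differences of these members follow from that choice and are a description. With R lower, the CpG 6:135821339 had 94.1% to 100% on F and 0% to 4.12% on R over the lesioned libraries. Its difference was 97.2 ± 1.73 points (SD, n = 6) in unlesioned, 96.1 ± 1.90 (n = 8) in lesioned saline and 98.0 ± 1.16 (n = 7) in L-DOPA libraries, with 149 reads on F and 169 on R on average. No library came near equality. At 5:105142091, R was listed at 0% in all 8 lesioned saline libraries, at 0% to 6.33% in L-DOPA and at 0% to 5.26% in unlesioned libraries, while F ran from 82.9% to 100% over all 21. The difference was 97.0 ± 2.56 points in lesioned saline and 95.2 ± 2.71 in L-DOPA libraries. At 5:163317322, R was at 0% in all 6 unlesioned libraries and at most 1.82% elsewhere, with F from 73.1% to 97.3%. The shallowest library at 0 had 36 reads on R at 5:105142091 and 61 at 5:163317322, and 0 of these allows levels of up to 8.33% and 4.92% (3 counts, for counting error only). None of these 3 CpGs had a population CpG at 46 to 49 bp that was unequal in the opposite direction.

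With F lower, 17:38507421 had 1.46% to 18.5% on F and 91.1% to 100% on R over all 21 libraries, a difference of -90.9 ± 4.56 points over the 15 lesioned libraries. The sites 18:54184935 (-88.6 ± 4.12), 10:35495508 (-84.7 ± 8.16) and 16:83075106 (-83.7 ± 6.17) were alike, with F at most 12.0%, 15.2% and 26.5% in any library. At each of them the strands' ranges were separate in all 3 groups. At 9:7631838 the difference was -70.7 ± 5.58 points in unlesioned, -80.9 ± 4.58 in lesioned saline and -84.2 ± 5.10 in L-DOPA libraries, with R at 63.0% to 91.7% in unlesioned libraries and 74.1% to 93.6% in lesioned ones. The remaining F-lower site, 7:4680723, stood at -73.9 ± 11.9, -76.8 ± 8.89 and -79.6 ± 12.2 points. The remaining R-lower sites were 3:155804496 (89.2 ± 5.03 over the lesioned libraries), 5:169788835 (88.9 ± 9.26) and 19:37010912 (85.9 ± 4.70). Adjusted p of the 12 sites in the quasi-binomial model of the lesioned libraries lay between 2.88e-15 (6:135821339) and 1.97e-09 (5:169788835). The sites were chosen on these same lesioned values, so these p-values are no separate support.

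Of these 12 sites, 7 belonged to a pair of CpGs 46 to 49 bp apart with opposite strand differences. In each such pair the first CpG, at the lower coordinate, was high on F and low on R, and the second was low on F and high on R. The partner of 17:38507421 was 17:38507373, at 48 bp. There R had 4.00% to 46.5% in unlesioned, 6.86% to 35.8% in lesioned saline and 10.5% to 31.2% in L-DOPA libraries, against F at 90.0% to 100% over the lesioned libraries. F was thus the higher strand at the first CpG and R at the second in every library. The CpG 18:54184888, at 47 bp from 18:54184935, had a mean difference of 82.6 points, and 16:83075060, at 46 bp from 16:83075106, one of 83.0. Partners could be less unequal: 3:155804545, at 49 bp from 3:155804496, had 60.7% on F and 93.2% on R, a difference of -32.6 ± 7.25 points over the lesioned libraries.

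**Figure D3:**
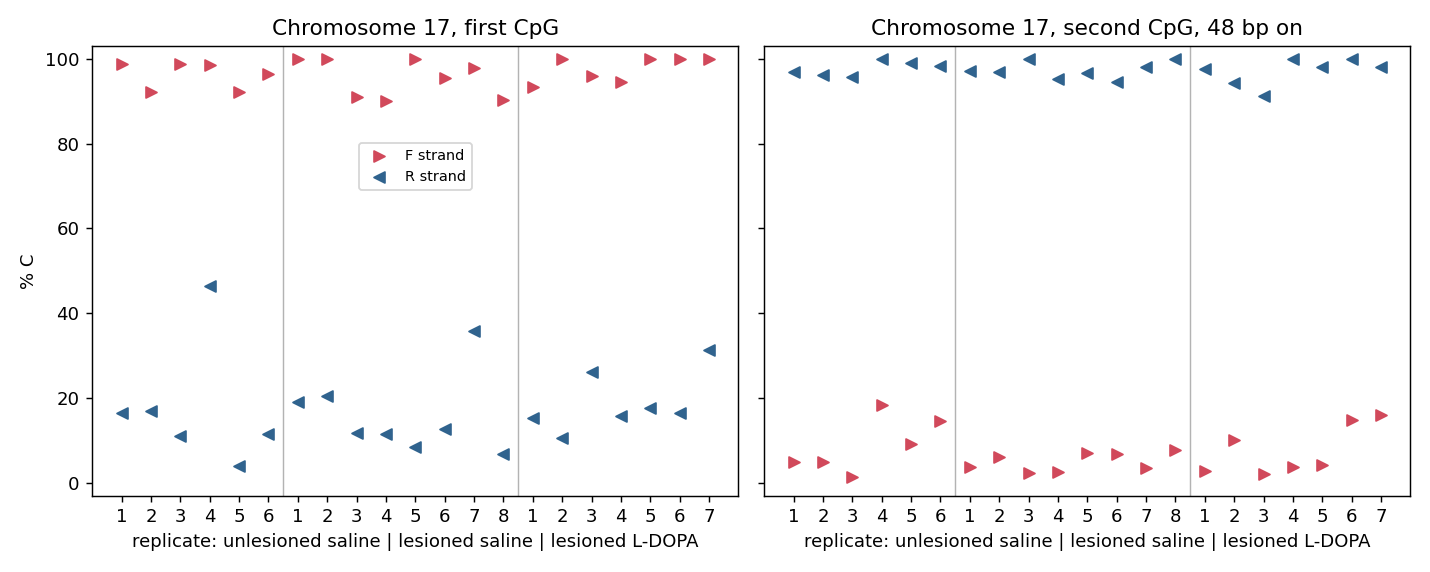
Percent C on the F strand (right-pointing, red) and R strand (left-pointing, blue) in each of the 21 libraries at the first CpG (left) and the second CpG (right) of the pair on chromosome 17, 48 bp apart; vertical lines part the groups. F is the higher strand at the first CpG and R at the second in all 21 libraries, with R at the first CpG reaching 46.5% in unlesioned replicate 4.

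Such mirrored pairs were counted over all CpGs of the population by their distance, from mean differences in the lesioned libraries of at least 10 points in opposite directions. At 46 to 49 bp, 67 of 11617 pairs (0.577%) were mirrored in this order and 1 in the reverse order. At 2 to 45 bp there were 67 of 197891 (0.0339%), and at 50 to 100 bp 57 of 66990 (0.0851%). No other distance up to 100 bp held more than 4, while 46 to 49 bp held 21 at its fullest. The average over all pairs, members or not, had the same step: the first CpG stood at 1.05 points and the second at -1.07 at 46 to 49 bp, 0.347 and -0.352 at 2 to 45 bp, and 0.143 and -0.160 at 50 to 100 bp. Within 2 to 45 bp the means grew with distance, from 0.140 at 2 bp. The number of pairs itself fell from 2942 at 49 bp to 979 at 50 bp.

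**Figure D4:**
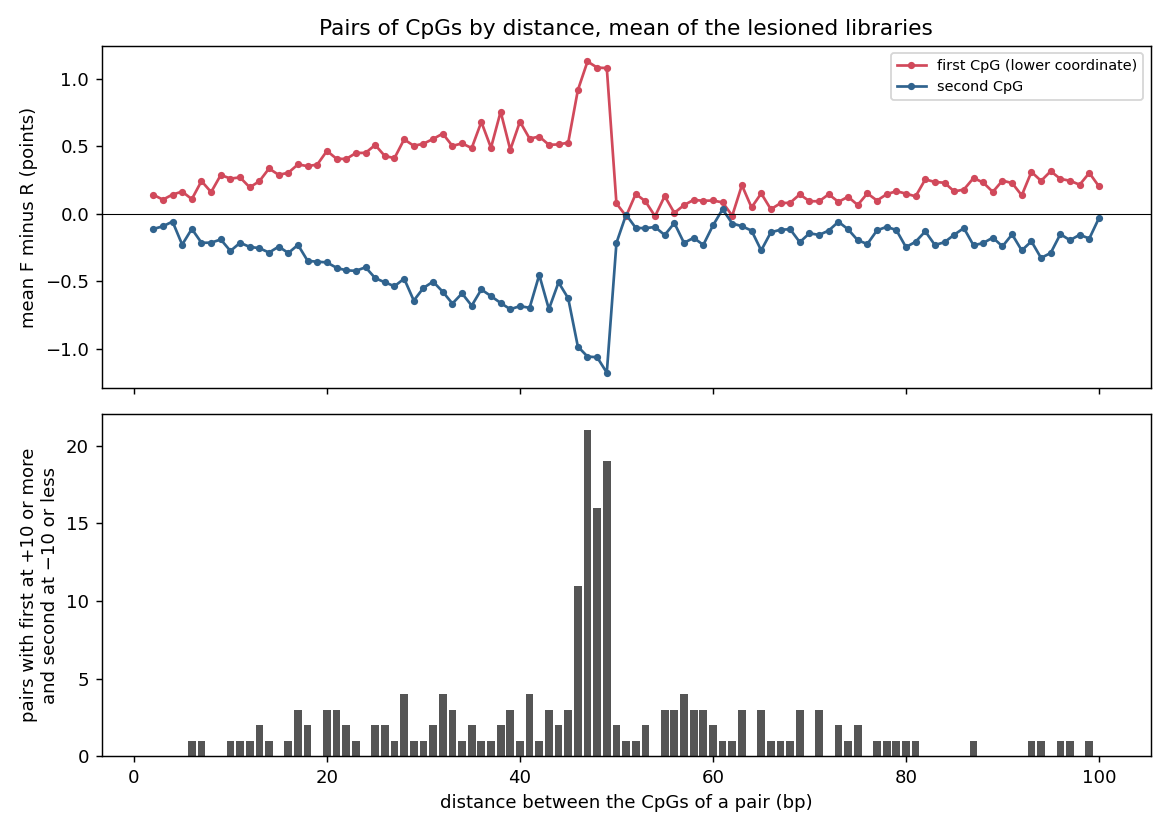
Top, mean F minus R strand difference (points) over the lesioned libraries of the first and second CpG of every pair of population CpGs, by their distance in bp. Bottom, number of pairs with the first CpG at 10 points or more and the second at -10 or less; the bars at 46 to 49 bp rise to 21 and no other bar exceeds 4.

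Reads in this study were 50 bases long. A read of 50 bases on the F strand that begins at the cytosine of the first CpG meets the F cytosine of the second at base 47 to 50, and the same holds on the R strand from the second CpG to the first. The low cytosine of a mirrored pair therefore sits at those bases of a read that begins at the partner on the same strand. Where reads began was not analysed here, and the part that position in the read plays in these differences was not tested. At the 62 mirrored pairs with a member, the read numbers of the 2 CpGs differed by a median of 7.05% on F and 3.85% on R, against 22.2% and 22.1% at the other 11555 pairs of 46 to 49 bp.

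The mirrored pairs held 111 of the 658 members, 49 pairs with both CpGs as members. They lay at 46 bp in 9 cases, at 47 bp in 20, at 48 bp in 15 and at 49 bp in 18. Their median levels were 83.0% on F and 8.40% on R at the first CpG, and 11.6% and 84.6% at the second. Mirrored members made up 55 of the 82 members with an unlesioned difference of 60 points or more. The median lesioned difference was 58.9 points at mirrored members and 23.4 at the 516 members that had neither a mirrored partner nor 1000 reads on a strand. Because the partners were sorted on lesioned values, the 108 of 109 mirrored members called there are no separate support. Without the mirrored members and those with 1000 or more reads on a strand, 451 of 495 tested were called. Over the 56 mirrored members measured in all 21 libraries, the median difference was 38.1 to 49.7 points in unlesioned, 40.8 to 49.7 in lesioned saline and 34.7 to 48.95 in L-DOPA libraries. L-DOPA replicates 3 and 7 and unlesioned replicate 1 were the lowest of the 21, with 36.2, 34.7 and 38.1 points. A population CpG at 46 to 49 bp lay on the side of the higher strand's 3' direction at 144 members (21.9%) and on the other side at 22 (3.34%), against 11.7% and 7.95% of the reference.

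The members with no mirrored partner had varied surroundings. Many stood alone: the nearest population CpG was over 250 bp away at 265 of these 547 (48.4%), against 12.0% of the reference. Where a population CpG lay within 2 to 10 bp, 53.3% of the 165 such neighbours had a difference of at least 10 points in the same direction and 3.03% in the opposite one, beside 0.294% and 0.120% around reference CpGs. At 11 to 25 bp it was 36.9% and 3.81%, at 26 to 50 bp 21.4% and 10%, and at 51 to 100 bp 8.33% and 19.3%. In counts, the neighbours at 2 to 10 bp were 88 with the same and 5 with the opposite direction, and those at 51 to 100 bp 19 and 44. A read of 50 bases can cover both CpGs at the shorter distances, so near neighbours share reads and are no independent measurements. The reference CpGs were not matched to the members in level here, and most of them lay outside 20 to 80%.

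Some members lay where stretches read from different strands met. Of the 547 members without a mirrored partner, 86 (15.7%) had listed F cytosines within 49 bp on the right only and R cytosines on the left only, against 6.87% of the reference and 11.8% of reference CpGs at 20 to 80%. At these members the F level of the right flank minus the R level of the left flank had the sign of the CpG's own strand difference in 79 of 86 cases. The median flank difference was 21.4 points and the median strand difference 20.3, and across the 86 CpGs Pearson's r was 0.820 and Spearman's rho 0.839. For the 967 like reference CpGs at 20 to 80%, 62.2% shared the sign and r was 0.382. The members were selected to differ by 20 points or more and these reference CpGs by less, so the shares and correlations of the 2 sets are over unlike ranges and cannot be set against each other. The correlations are over CpGs, which share libraries and, with their flanks, reads, and are a description.

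The number of reads was less balanced between the strands at members. At 241 members (36.6%) the strands differed in reads by more than 2-fold, against 18.2% of the reference and 28.6% of reference CpGs at 20 to 80%. The lower strand had more reads at 303 of the 658 members, so neither the deeper nor the shallower strand was the usual low one. Median reads were 69.3 on the lower strand and 73.6 on the higher. At least 1000 reads on a strand were found at 33 members (5.02%), against 0.210% of the reference.

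Members at most 250 bp apart formed 535 runs, of which 447 held 1 member, 73 held 2 and 15 held 3 or more. Of the runs of 2, 47 were a mirrored pair. The runs with the most members were 1:13503771-13504040 with 8, 1:13509255-13509451 with 7 and 15:45181-45444 with 6. Both chromosome 1 runs lay in a stretch from 13497219 to 13510419 with very many reads, in which 28 of 142 population CpGs (19.7%) were members and mean reads on a strand ran up to 28497. The strands of these 28 members differed in reads by a median of 14.1-fold, and all 28 were called in the lesioned libraries. At 1:13503832, for example, F had 857 reads on average and R 25395, with 70.0% and 19.3% in unlesioned libraries and a difference of 49.3 ± 5.58 points in the 15 lesioned ones. The neighbour 1:13503771 had 17677 reads on F and 32.1 on R and the reverse direction, -64.0 ± 12.0 points over its lesioned libraries. Both directions thus occurred within this run.

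The run at the start of chromosome 15 had 52.4 to 565 reads per strand and 3 members of each direction. The run's medians of 207 reads on F and 296 on R lay above those of all members, 73.0 and 70.2. Its first CpGs, 15:45181 and 15:45226, stood at 52.3 ± 16.9 and -56.0 ± 22.8 points over the lesioned libraries, the first high on F and the second high on R, as in a mirrored pair but at 45 bp. The next, 15:45277 and 15:45306, were F-lower (-19.9 ± 4.62 and -43.1 ± 5.21), and 15:45395 and 15:45444 were R-lower (55.1 ± 9.40 and 37.4 ± 18.8). The run thus changed direction 2 times. A run of 5 members at 8:118628384-118628412 had 1 direction throughout, with R lower by 26.5 to 35.9 points in lesioned libraries; it ranked below the 3 longest and was picked after its values were seen.

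Some members varied widely between libraries. Over the lesioned libraries, the lower strand of the members ranged over a median of 28.8 points and the higher strand over 31.5, beside 33.4 and 32.8 at reference CpGs of 20 to 80%. The 4 members below were picked for the widest range of the lower strand. The widest was 1:250421606, whose F strand ran from 19.2% to 90.2% while R stayed between 66.0% and 94.4%. Its difference was -46.4 ± 14.4 points in lesioned saline and -29.3 ± 23.7 in L-DOPA libraries, and the groups overlapped. At 15:45444 R ran from 27.0% to 92.5% and F from 82.2% to 100%. At 9:6557773 F ran from 11.6% to 78.8% and R from 75.3% to 89.9%, and at 11:12573771 F ran from 28.2% to 92.2% and R from 89.9% to 96.6%.

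Members were spread over all 20 autosomes, from 0.376% of the population CpGs on chromosome 8 to 0.938% on chromosome 20. Chromosome 1 had the most, 99, of which 28 lay in the stretch of very many reads.

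Whether L-DOPA changed the strand difference was tested by an interaction of strand and group between the 7 L-DOPA and the 8 lesioned saline libraries. No CpG of 102059 tested passed (0%), and none of the 623 members tested did. At an unadjusted p under 0.05 there were 38 members (6.10%) and 6996 CpGs in all (6.85%). The smallest adjusted p was 0.715. With limma on percentage points and on log2 odds no CpG passed either, with 4583 and 5598 at an unadjusted p under 0.05. The absolute change between the groups had a median of 3.89 points over the members, with a median standard error of 6.10 points. Changes of a few points at a single CpG were therefore not detectable with these samples. Larger ones did not pass either: 18.2 points at 7:100071617 and 23.6 at 18:24442994 had an adjusted p of 0.715 in the quasi-binomial model. The absence of calls thus does not exclude changes of that size at single CpGs. The difference was larger under L-DOPA at 275 of the 658 members and at 55148 of the 110376 reference CpGs. These CpGs share libraries, and the counts were not tested. Over the 380 members measured in all libraries, L-DOPA replicates 3 and 7, with a low percent of C, had medians of 24.3 and 23.2 points. The other L-DOPA libraries had 26.5 to 29.7, and lesioned saline libraries 25.3 to 29.5.

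The 3 members with the smallest p in this comparison are given as values. They were picked on that p, so their changes do not stand for those of the members in general. At 7:100071617 the difference was -66.1 ± 8.05 points in lesioned saline and -47.9 ± 8.28 in L-DOPA libraries, a change of 18.2 points (SE 4.23; unadjusted p 0.000574, adjusted p 0.715 in the quasi-binomial model). The groups overlapped, with -73.9 to -53.5 points in lesioned saline and -62.7 to -38.1 in L-DOPA libraries, and unlesioned libraries overlapped both, from -73.2 to -40.4. At 18:24442994 it was -28.6 ± 16.8 points against -5.01 ± 7.75, a change of 23.6 (SE 6.63). At 5:26583149 it was 12.7 ± 9.48 against 26.6 ± 6.33, a change of 13.97 (SE 4.12), with unlesioned libraries at 30.2 ± 14.2. The first 2 moved toward equal strands and the last away from it, and none held after adjustment.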

How the data were processed

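Per the labels' protocols and the submitters' processing notes, single-end bisulfite reads of 50 bases were handled with FastQC 0.10.1, Trim Galore 0.3.7, Bismark 0.13.0 (genome rn5), SAMtools 0.1.19 and methylKit 0.9.2. How libraries were built and whether read ends were clipped by length is not stated in the labels. The deposited files give coverage as a count of reads per cytosine, at least 10, and the percent of C and T that the authors computed from it. Percent and coverage gave whole read counts for 100% of the cytosines, within the rounding of the percent (0.0051 points), a tolerance that excludes nothing at the deepest sites.

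F and R cytosines were joined to CpGs. The strand test was a quasi-binomial logistic model over lesioned libraries (at least 10) with dispersions moderated by limma 3.58.1 (R 4.3.3) and Benjamini-Hochberg adjustment over all CpGs; the L-DOPA comparison needed at least 5 libraries per group. Fits ran in Python 3.11.15 with numba 0.67.0 and were tested on simulated data. Alternatives covered coverage (10, 30, 50 reads), threshold (10, 30 points), pooling, left-out libraries and limma fits. Named sites followed a fixed rule: per direction the 6 largest lesioned differences called and of 1 sign in all 21 libraries, the 3 nearest to the threshold on each side, the 3 longest runs, the 4 widest ranges of the lower strand, and the 3 smallest p for L-DOPA. Members, lists and tests were chosen with earlier results of these data known. Same-numbered samples of different groups did not deviate together (r from -0.0421 to 0.0232 over 19 pairs), so numbers were not taken as pairs. Counts include any duplicate reads that remain, so read numbers overstate independent molecules.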

Additional observations from a re-analysis of the deposited data

Results flagged for a closer look

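In groups of 6 to 8 libraries, a library was singled out where its gap to the nearest other made up an unusually large part of the group's range (Dixon's 95% value). Of 71 sets examined, 7 had such a library, where chance gives about 1 in 20. The share of members with the unlesioned sign was 90.4% in L-DOPA replicate 7, next to 94.4%. The median strand difference of the members was 38.7 points in unlesioned replicate 4, next to 30.9. The median of the mirrored members was 39.99 points in lesioned saline replicate 2, next to 55.8; this library measured 74 of the 111, and over the 56 measured in every library it had 40.8 points, the lowest of its group, next to 41.2. At 7:4680723 the strand difference was -51.0 points in unlesioned replicate 4, next to -72.3. At 5:169788835 it was 79.1 points in lesioned saline replicate 4, next to 91.3. At 19:37010912 it was 93.3 points in L-DOPA replicate 3, next to 83.1. At 9:6557773 it was -63.7 points in L-DOPA replicate 7, next to -31.1.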

How the results depend on the processing

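The number of members (658) became 1618, 348 and 125 at 10, 30 and 50 reads per strand, 2895 at a threshold of 10 points and 262 at 30 points. Of the tested members, 590 of 635 were called in lesioned libraries. This became 1296 of 1561, 323 of 332 and 117 of 119 at those coverages. At those thresholds it became 1598 of 2806 and 256 of 256. It was 221 of 648 in series 2 alone, 393 of 601 in lesioned saline and 330 of 639 in L-DOPA libraries alone. The last 3 settings have fewer samples. Both thresholds used the main fit, in which 7.48% of 109245 CpGs were called. The share of all CpGs called in the other settings is not given here. The share with 1 sign in every lesioned library (66.7%) became 51.2%, 75% and 84% at those coverages, 26.4% and 94.3% at those thresholds and 71.2% with reads pooled over libraries. The median lesioned difference (26.3 points) became 10.5 and 44.8 at those thresholds. Leaving out each unlesioned replicate gave 720 to 884 members, with 611 of 689 tested to 745 of 802 tested called. The share with 1 sign was 59.9% to 66.6% and the median 23.9 to 27.5 points. Limma on percentage points called 588 of 635 tested members, and an adjusted p of 0.01 left 551 of 635. No CpG was called between L-DOPA and lesioned saline in any of the 10 other settings, including limma on points with the replicate block (0 called, 4710 at an unadjusted p under 0.05, smallest adjusted p 0.775); the block changed no call. Of 138 tested values of the named sites under other settings, 118 kept their direction and side of the threshold. A further 20 kept the direction but no longer passed, and 0 reversed. The sites of largest difference were chosen for 1 sign in all 21 libraries, so no subset of libraries could reverse them. The 3 L-DOPA sites did not pass in the main setting and count as kept where they again did not pass. In 9 further settings a named site had no test. The alternative without unlesioned replicate 1 and L-DOPA replicates 3 and 7 was chosen after seeing the data and gave 754 members.

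Limits: only 14.6% to 16.5% of the autosomal CpGs listed in a library had both strands, so the population is a small part of the CpGs read. Members were not placed in genes. Where in its read a cytosine lay was not analysed here. Middle levels from about 20 reads carry counting errors that are not small beside the threshold of 20 points. The least covered members were measured in 4 lesioned libraries.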
